A study of Mus musculus with 18 samples.

Results

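The genes described here are 45 mouse genes of the DNA replication machinery, chosen by function, with earlier results of these data known. They were found by gene symbol in the RNA tables and in the lists of accessible chromatin of a study of stress erythropoiesis. All 45 were among the 24072 genes of the spleen count table, and all passed the mean-count filter that left 10166 genes for testing. All 45 were also among the 10702 genes that the authors kept in the table of both populations of burst-forming erythroid progenitors (BFU-E).

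Stress erythropoiesis is the emergency output of red cells, and in mice the spleen does much of this work. RNA was sequenced from 4 sorted populations of B6SJL mice, with 3 libraries each. One was BFU-E of the resting bone marrow (BM). The others came from the spleen and were, from early to late, multipotent progenitors (called MPP), BFU-E, and the CFU-E stage that forms erythroid colonies. The spleens came from mice that had been lethally irradiated and given unfractionated bone marrow cells 8 days earlier, while the BM mice are labelled only as steady-state. Open chromatin was mapped by ATAC-seq, which reads where a transposase can enter the DNA, in BM BFU-E and stress spleen BFU-E, again with 3 libraries each. Cells with lineage antigens were depleted with magnetic beads, and the rest were sorted by surface antigens with dead cells gated out. Biotinylated antibodies were read with Qdot655 in the steady-state sorts and with Qdot605 in the others, so between both BFU-E populations the tissue, the treatment of the mouse and the fluorophore cannot be told apart. Nothing states whether libraries came from separate animals, so p-values measure only the spread between these libraries, which may be technical.

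Before a cell divides, its DNA is copied once. In G1 the origin recognition complex (ORC), Cdc6 and Cdt1 load the ring of Mcm2 to Mcm7 onto origins, which is called licensing, and geminin (Gmnn) blocks Cdt1 later in the cycle. In S phase Mcm10, Cdc45, the GINS complex and the kinase activator Dbf4 turn the ring into a running helicase, the clamp loader RFC sets the sliding clamp PCNA, and polymerases alpha, delta and epsilon copy the strands. Many of these genes are targets of E2F factors, which switch on the entry into S phase. Early erythroid progenitors divide fast, and the S phase of CFU-E is known to be tied to the start of terminal differentiation.

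Libraries held between 5937778 and 13197159 counts in the spleen table and between 6758871 and 12926718 in the BFU-E table. The replicates of BM BFU-E stood apart: 1.53% to 15.3% of the genes of that table had no count in them, against 0.420% to 0.738% in stress spleen BFU-E. The biological coefficient of variation was 0.704 in the BFU-E fit and 0.250 in the spleen fit. Levels below are in CPM, counts scaled to the library size with TMM factors. Of 10 erythroid markers 6 could be tested, of which 4 rose from MPP to BFU-E and 6 from BFU-E to CFU-E. Their summed level was 178 to 232 CPM in MPP, 289 to 335 in BFU-E and 1702 to 1713 in CFU-E, while Epor had means of 27.3, 22.5 and 54.8 CPM and the globin gene Hba-a1 had at most 12 counts in any spleen library. The libraries labelled BFU-E also held high levels of 7 megakaryocyte markers, whose sum was at least 1773 and at most 2046 CPM in spleen BFU-E, 1011 to 1178 CPM for MPP and 78.2 to 90.2 CPM for CFU-E. Sums of 9 myeloid markers lay at 687 to 828, 102 to 455 and 29.9 to 68.2 CPM in the same order, and 7 lymphoid markers reached at most 1.93 CPM in any spleen library.

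Some of the promoters of these genes shared sequence that the choice of members did not use. RefSeq's GRCm38.p6 table held a promoter for 36 of the 45 members, each with 250 bases before and 50 after a start site, and 35 of these lay within 1000 bp of the start of the transcript that was counted. An 8-base word of the E2F type (TTTCGCGC, TTTGGCGC, TTTCCCGC or TTTGCCGC, on either strand) occurred in 15 of the 35 (42.9%), against 4.72% of 7672 promoters of the genes tested in the spleen. The other 20 had no such word in the window. TTTCGCGC and TTTCCCGC each occurred in 7 members, TTTGGCGC in 6 and TTTGCCGC in 0. A match describes letters, not a bound factor.

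The upstream bases of 6 members are shown, those whose RNA passed a test in the spleen comparisons below and whose E2F-type word starts within 150 bases before the start site. Each run is the 150 bases just upstream of the RefSeq start, 5′ to 3′ on the strand of the gene, and capitals mark the E2F-type words. The coordinates are chr4:108579304-108579453 (plus strand) for Orc1, chr11:98908001-98908150 (plus strand) for Cdc6, chr8:75109359-75109508 (plus strand) for Mcm5, chr1:128359706-128359855 (minus strand) for Mcm6, chr5:151651209-151651358 (minus strand) for Rfc3 and chrX:93632156-93632305 (minus strand) for Pola1.
Orc1: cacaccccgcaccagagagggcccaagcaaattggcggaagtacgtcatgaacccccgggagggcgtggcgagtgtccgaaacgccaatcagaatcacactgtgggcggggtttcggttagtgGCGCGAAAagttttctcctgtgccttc
Cdc6: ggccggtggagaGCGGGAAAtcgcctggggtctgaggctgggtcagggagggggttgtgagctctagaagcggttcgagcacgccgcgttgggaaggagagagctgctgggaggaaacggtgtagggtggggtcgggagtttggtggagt
Mcm5: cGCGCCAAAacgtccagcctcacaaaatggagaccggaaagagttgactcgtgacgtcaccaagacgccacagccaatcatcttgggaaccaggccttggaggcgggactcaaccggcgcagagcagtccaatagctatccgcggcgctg
Mcm6: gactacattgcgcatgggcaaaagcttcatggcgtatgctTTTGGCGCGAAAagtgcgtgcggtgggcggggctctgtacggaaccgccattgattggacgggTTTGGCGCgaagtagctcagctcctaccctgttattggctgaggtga
Rfc3: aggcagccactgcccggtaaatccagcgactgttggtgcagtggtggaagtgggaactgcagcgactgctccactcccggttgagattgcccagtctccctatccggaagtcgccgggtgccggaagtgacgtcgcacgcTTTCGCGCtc
Pola1: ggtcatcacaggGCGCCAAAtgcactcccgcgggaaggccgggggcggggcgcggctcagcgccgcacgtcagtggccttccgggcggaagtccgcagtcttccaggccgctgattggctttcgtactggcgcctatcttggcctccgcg
In Orc1 the word starts 27 bases and in Rfc3 10 bases before the start site. In Mcm6 there are 3 words, of which 2 overlap in the stretch TTTGGCGCGAAA, 110 bases upstream, and the third starts 47 bases upstream. The Pola1 word starts 138 bases upstream. The Mcm5 word starts 149 bases upstream and overlaps another that begins outside the printed window. For Cdc6 the RefSeq start lies 262 bases downstream of the start of the counted transcript. Its distance of 138 bases holds for the RefSeq start alone, and the word lies inside the counted transcript. Cdt1, Mcm3, Pold1, Pold3, Pole2, Lig1 and Clspn had their words within the first 50 transcribed bases only.

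Other elements were closer to the rest of the genome or below it. A CCAAT box (CCAAT, either strand), bound by NF-Y, was in 22 of 35 member promoters (62.9%) against 39.0% of the tested genes. The GC box GGGCGG, the Sp1 site, was in 26 (74.3%) against 68.4%, and the E-box CACGTG in 5 (14.3%) against 10.9%. TTTGAA, the core of the CHR element of mitotic genes, was in 4 (11.4%) against 11.4%. The erythroid GATA word AGATAA was in 1 of the 35, Orc2 (2.86%), against 5.72%.

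Levels of different genes were compared per length, as RPKM, which divides reads by library size and gene length, in the 12-library table. The median member had a mean of 25.3 RPKM over the 9 spleen libraries, from 4.79 (Orc1) to 148 (Mcm6), against a median of 8.08 over the genes tested. Mcm6 was the highest of the 45 and Mcm3 (122 RPKM) and Mcm2 (82.4 RPKM) followed, and these 3 ring subunits were the only members above Lig1. The ring takes 1 copy of each subunit, while the RNA levels of the 6 genes spanned 3.11-fold, down to Mcm4 with 47.5 RPKM. In counts, Mcm2 to Mcm7 made up 37.4% to 38.7% of the summed CPM of all 45 members in MPP, 39.3% to 40.3% in BFU-E and 39.6% to 40.5% in CFU-E.

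The enzymes that finish the lagging strand, the nick-sealing ligase Lig1 (65.1 RPKM) and the flap nuclease Fen1 (52.4 RPKM), stood among the other ring subunits, Mcm5 (62.3), Mcm7 (54.9) and Mcm4. The clamp loader subunit Rfc2 had a mean of 49.0 RPKM, the fork protection factor Tipin 48.7 and the large subunit of the single-strand binding protein, Rpa1, 45.3. Licensing factors were lower, with Cdt1 at 28.9 RPKM, Orc2 and Orc6 at 17.6 each and Cdc6 at 6.49. The GINS complex needs 1 copy of each of 4 subunits too, and its lowest gene, Gins3, was at 4.84 RPKM. Pcna was listed at 18.0 RPKM, but its reads can also map to its processed pseudogenes Pcna-ps1 and Pcna-ps2, so its level is uncertain.

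The first spleen comparison asks how the machinery changes as multipotent cells become BFU-E. Of the 45 members, 2 rose and 0 fell from MPP to BFU-E, Mcm6 and Pola1, and the median log2 fold change was 0.06 against -0.00 over all genes. In this comparison 4.13% of 10166 genes were called by edgeR (quasi-likelihood F test, Benjamini-Hochberg adjusted p under 0.05), 2.03% higher and 2.11% lower. Mcm6 (chr1:128331575-128359705) had 650.1, 659 and 706 CPM in MPP and 783, 846 and 819.5 in BFU-E. Every BFU-E library was above every MPP library (log2 fold change 0.28, SE 0.07, edgeR adjusted p = 0.036). Pola1 (chrX:93304766-93632155), the catalytic subunit of the polymerase that starts each strand together with primase, had 217, 249 and 259.9 CPM in MPP and 316, 337 and 287 in BFU-E. Its groups did not overlap either (log2 fold change 0.37, SE 0.10, edgeR adjusted p = 0.047). Neither call was stable: each was lost without any single BFU-E library, and when only MPP and BFU-E were fitted 0 members were called, with 6 at an unadjusted p under 0.05. DESeq2 called 3 of the 45, and 619 of all 10166 genes.

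At this step the groups did not overlap for 8 members, 6 higher and 2 lower in BFU-E, while over all genes that held for 10.5% and 10.8% (21.3% in either direction). The 2 lower members were clamp loader subunits: Rfc5 (log2 fold change -0.46, edgeR adjusted p = 0.12) and Rfc1 (-0.27, edgeR adjusted p = 0.23). The clamp and its loader had a median of -0.20, the MCM ring a median of 0.16 with 6 of 6 subunits above 0, and licensing a median of 0.17 with 5 of 6. These role groups were described by counts and medians only.

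From BFU-E to CFU-E 12 of the 45 members rose and 0 fell, where 21.1% of all genes were called, 9.17% higher and 11.9% lower. The median log2 fold change of the members was 0.19 against -0.00 over all genes, and 39 of 45 were above 0. Groups did not overlap for 20 members that were higher and 1 that was lower in CFU-E, against 18.2% and 19.3% of all genes (37.5% in either direction). By role, the members called were Orc2, Cdc6 and Cdt1 of licensing, Mcm3, Mcm4 and Mcm7 of the ring, Mcm10, the clamp loader subunits Rfc3 and Rfc5, Pold3, Fen1 and the fork factor Wdhd1.

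Cdc6, which helps ORC to load the ring, changed most. It had 36.5, 53.5 and 43.9 CPM in the BFU-E libraries and 93.4, 57.5 and 93.9 in CFU-E. The lowest CFU-E library stood just above the highest BFU-E library (log2 fold change 0.87, SE 0.22, edgeR adjusted p = 0.0064). Orc2, a core subunit of ORC (chr1:58462771-58505109), had 109, 77.2 and 79.0 CPM in BFU-E and 148, 162 and 119 in CFU-E. Its groups also stood apart (log2 fold change 0.70, SE 0.17, edgeR adjusted p = 0.0044). The strand used for counting is not stated, and 29.8% of the exonic bases of Orc2 overlap Nif3l1 on the other strand, so the 2 genes could not be told apart there. Cdt1 measured 107 ± 27.0 CPM in BFU-E and 147 ± 20.1 in CFU-E (SD, n = 3), at the edge of the threshold (log2 fold change 0.46, edgeR adjusted p = 0.0498). Geminin, its inhibitor, had a difference of the same size that did not pass (0.50, edgeR adjusted p = 0.11).

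Among the ring subunits, Mcm7 (chr5:138164589-138171862) had 202, 229.9 and 226 CPM in BFU-E and 279, 326 and 281 in CFU-E (a log2 difference of 0.43, SE 0.13, edgeR adjusted p = 0.018). Mcm4 had 283, 291 and 330.5 CPM against 385, 379 and 359.8 (0.31, SE 0.11, edgeR adjusted p = 0.042). In both genes all CFU-E libraries were above all BFU-E libraries. Of the exonic bases of Mcm7 12.6% overlap other genes, among them Ap4m1 and Cops6 on the other strand. Mcm3 rose by 0.27 (edgeR adjusted p = 0.026). The other 3 subunits did not pass at this step, with log2 fold changes of 0.12 (Mcm2), 0.15 (Mcm6) and 0.21 (Mcm5). Mcm10, which acts when the helicase fires, had 166, 101 and 128 CPM in BFU-E and 235, 199 and 178 in CFU-E (0.64, SE 0.16, edgeR adjusted p = 0.0073). Its partners Cdc45, Gins1, Gins2, Gins3, Gins4 and Dbf4 did not pass.

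At the fork, the clamp loader subunit Rfc3 had 21.1, 26.6 and 19.7 CPM in BFU-E and 38.2, 35.4 and 38.8 in CFU-E (a log2 difference of 0.74, SE 0.25, edgeR adjusted p = 0.039). Fen1, which trims the flaps between Okazaki fragments, had 208, 169 and 175 CPM against 276, 257 and 242 (0.49, SE 0.12, edgeR adjusted p = 0.0047). Both rose without overlap between the groups. However, 84.2% of the exonic bases of Fen1 overlap Gm10143 or Tmem258 on the other strand, so its counts may hold reads of these genes. Pold3, an accessory subunit of polymerase delta, had 97.9, 103 and 93.3 CPM in BFU-E and 141, 116 and 127 in CFU-E (0.38, SE 0.13, edgeR adjusted p = 0.048). Wdhd1, which couples the helicase to polymerase alpha, had 105, 101 and 101 CPM in BFU-E and 134, 127 and 147 in CFU-E (0.41, SE 0.14, edgeR adjusted p = 0.042). The 3 genes of the single-strand binding protein and the chromatin assembly genes Chaf1a and Chaf1b did not pass.

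Orc2, Cdc6 and Fen1 kept their call under all 14 alternatives of this comparison, including each library left out in turn. Wdhd1 lost its call in 6 of the 14, when any BFU-E or CFU-E library was left out (edgeR adjusted p up to 0.145). Rfc3, Pold3 and Cdt1 also lost theirs in 6 each, Mcm4 in 5, Mcm3 in 4, Rfc5 in 3, and Mcm7 and Mcm10 in 2 each. The number of members called dropped to 5 when CFU-E 1, CFU-E 2 or BFU-E 1 was left out, to 6 when BFU-E 2 was, and to 7 when BFU-E 3 was.

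Over the whole way from MPP to CFU-E, 14 of the 45 members rose and 0 fell, where 28.8% of all genes were called, 12.7% higher and 16% lower. The median log2 fold change was 0.31 against -0.00 over all genes, and 41 of 45 members were above 0. The groups did not overlap for 22 members higher and 1 lower, against 19.1% and 21.2% of all genes (40.4% in either direction). This comparison shares the MPP and CFU-E libraries with the steps above and is no further evidence of them. Of the licensing genes, Orc1, Orc2, Cdc6 and Cdt1 rose, and of the ring, all subunits but Mcm2 did. Pola2, Pold1 and Pold2 of the polymerases, Fen1 and Wdhd1 completed the list, and 0 of 7 helicase activators, 0 of 6 clamp genes, 0 of 3 single-strand binding genes and 0 of 2 chromatin assembly genes passed.

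Cdc6 went from 42.8, 29.2 and 34.2 CPM in MPP to the CFU-E values given above, a 2.29-fold difference (log2 fold change 1.20, SE 0.22, edgeR adjusted p = 0.00034). Mcm6 was at 672 ± 30.1 CPM in MPP, 816 ± 31.7 in BFU-E and 907 ± 24.8 in CFU-E, with no overlap between any pair of stages (CFU-E against MPP 0.43, edgeR adjusted p = 0.00016). Orc1, an ORC subunit regulated over the cell cycle, was at 21.2 ± 4.04, 22.8 ± 3.19 and 34.5 ± 4.49 CPM. Its call (log2 fold change 0.70, edgeR adjusted p = 0.048) was lost in 10 of 14 alternatives, with adjusted p values up to 0.16. Of the exonic bases of Orc1 10.8% overlap Gm12743 on the other strand. Among the ring subunits, Mcm4 had 229, 295 and 251 CPM in MPP (a log2 difference of 0.54, SE 0.11, edgeR adjusted p = 0.00069) and Mcm7 had 163, 234 and 221 (0.52, SE 0.13, edgeR adjusted p = 0.0038), all below the CFU-E values given above. The MPP libraries of Fen1 (163, 173 and 202 CPM) and of Wdhd1 (88.1, 122 and 94.5 CPM) were likewise all below those of CFU-E (0.53, edgeR adjusted p = 0.0020, and 0.43, edgeR adjusted p = 0.027). Mcm4 (0.54), Mcm7 (0.52), Mcm5 (0.44), Cdt1 (0.70), Pola2 (0.51), Orc2 (0.70) and Fen1 (0.53) kept their calls under every alternative run, as did Cdc6 and Mcm6.

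Within a polymerase some subunits passed and others did not, and the difference between subunits was not tested. For polymerase delta, the small subunit Pold2 had 65.6, 60.3 and 67.3 CPM in MPP and 104, 121 and 82.5 in CFU-E (a log2 difference of 0.67, SE 0.19, edgeR adjusted p = 0.0096). The catalytic subunit Pold1 had 173, 155 and 183 CPM in MPP and 209, 260.4 and 217 in CFU-E (0.42, SE 0.12, edgeR adjusted p = 0.0083). Both groups of libraries were apart in each gene, and both genes lost the call without CFU-E 2 (edgeR adjusted p = 0.065 and 0.066). For polymerase epsilon, Pole had a log2 fold change of 0.10 (edgeR adjusted p = 0.57) and Pole2 of 0.34 (0.42). Pola2 had 95.7, 119 and 133 CPM in MPP and 182, 153 and 159 in CFU-E (0.51, SE 0.14, edgeR adjusted p = 0.0072), while for Pola1, of the same enzyme, the difference was 0.18 (edgeR adjusted p = 0.21).

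The most abundant genes of several roles passed none of the spleen tests. Rpa1 had 245, 248 and 224 CPM in MPP, 247, 263 and 271 in BFU-E and 255, 262 and 238 in CFU-E. Lig1 had 316, 375 and 347, then 366, 352 and 349.6, then 385, 377 and 427 CPM in the same order. The values of Rpa1 overlapped between all stages, and those of Lig1 lay higher in CFU-E than in both other stages without passing (CFU-E against MPP 0.20, edgeR adjusted p = 0.14). The chromatin assembly subunit Chaf1a, at 186 to 206 CPM in MPP, 174 to 197 in BFU-E and 180.0 to 224 in CFU-E, and the fork factor Tipin, at 86.0 to 142, 87.6 to 118 and 99.8 to 116 CPM, overlapped throughout. Of the exonic bases of Chaf1a 52.5% overlap Ubxn6 on the other strand. Rfc2 was at 113 to 131 CPM in MPP, 138 to 153 in BFU-E and 129 to 144 in CFU-E, and 15.1% of its exonic bases overlap Lat2 on the other strand.

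Set beside the promoter words, 8 of the 15 members with an E2F-type match were called from MPP to CFU-E (median log2 fold change 0.42), and 5 of the 20 without one (median 0.28). These counts are a description and the difference was not tested.

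**Figure D1:**
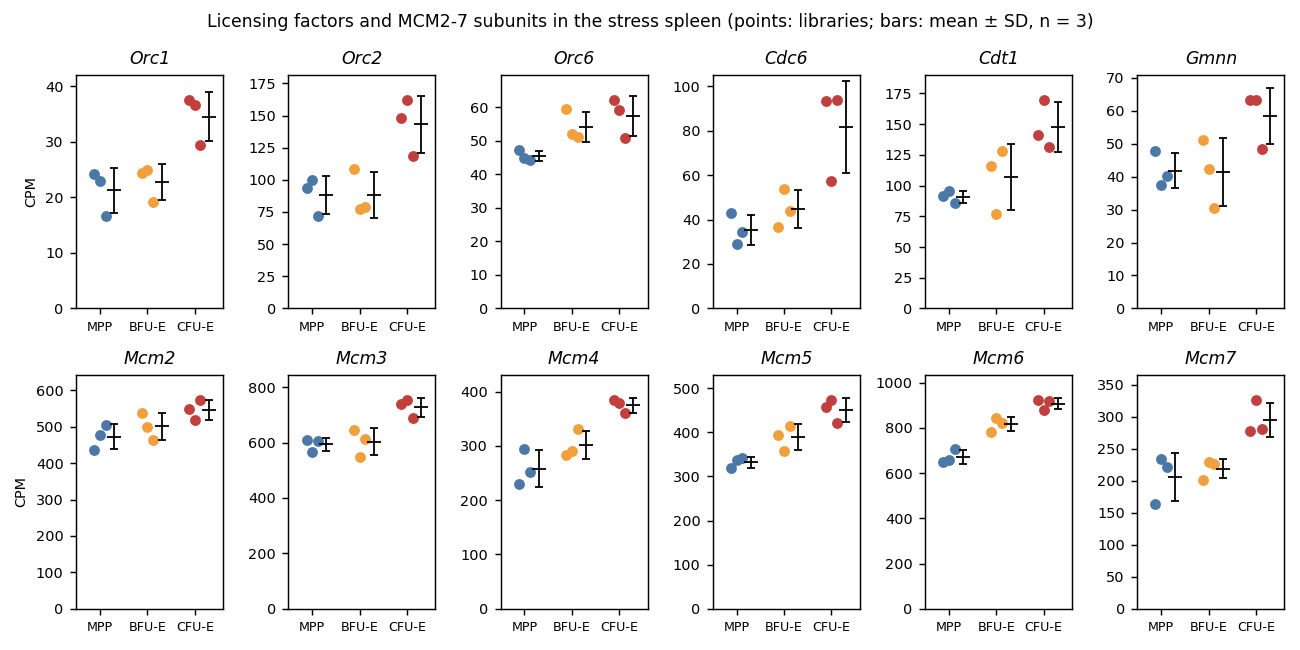
Normalised counts (CPM, vertical axis, from 0) of the 6 licensing genes and the 6 MCM2-7 subunits in MPP, BFU-E and CFU-E of the stress spleen. Points are libraries and bars are the mean with SD (n = 3); the CFU-E libraries of Cdc6 lie between 57.5 and 93.9, all above those of the other stages, and Mcm6 steps up at each stage.

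**Figure D2:**
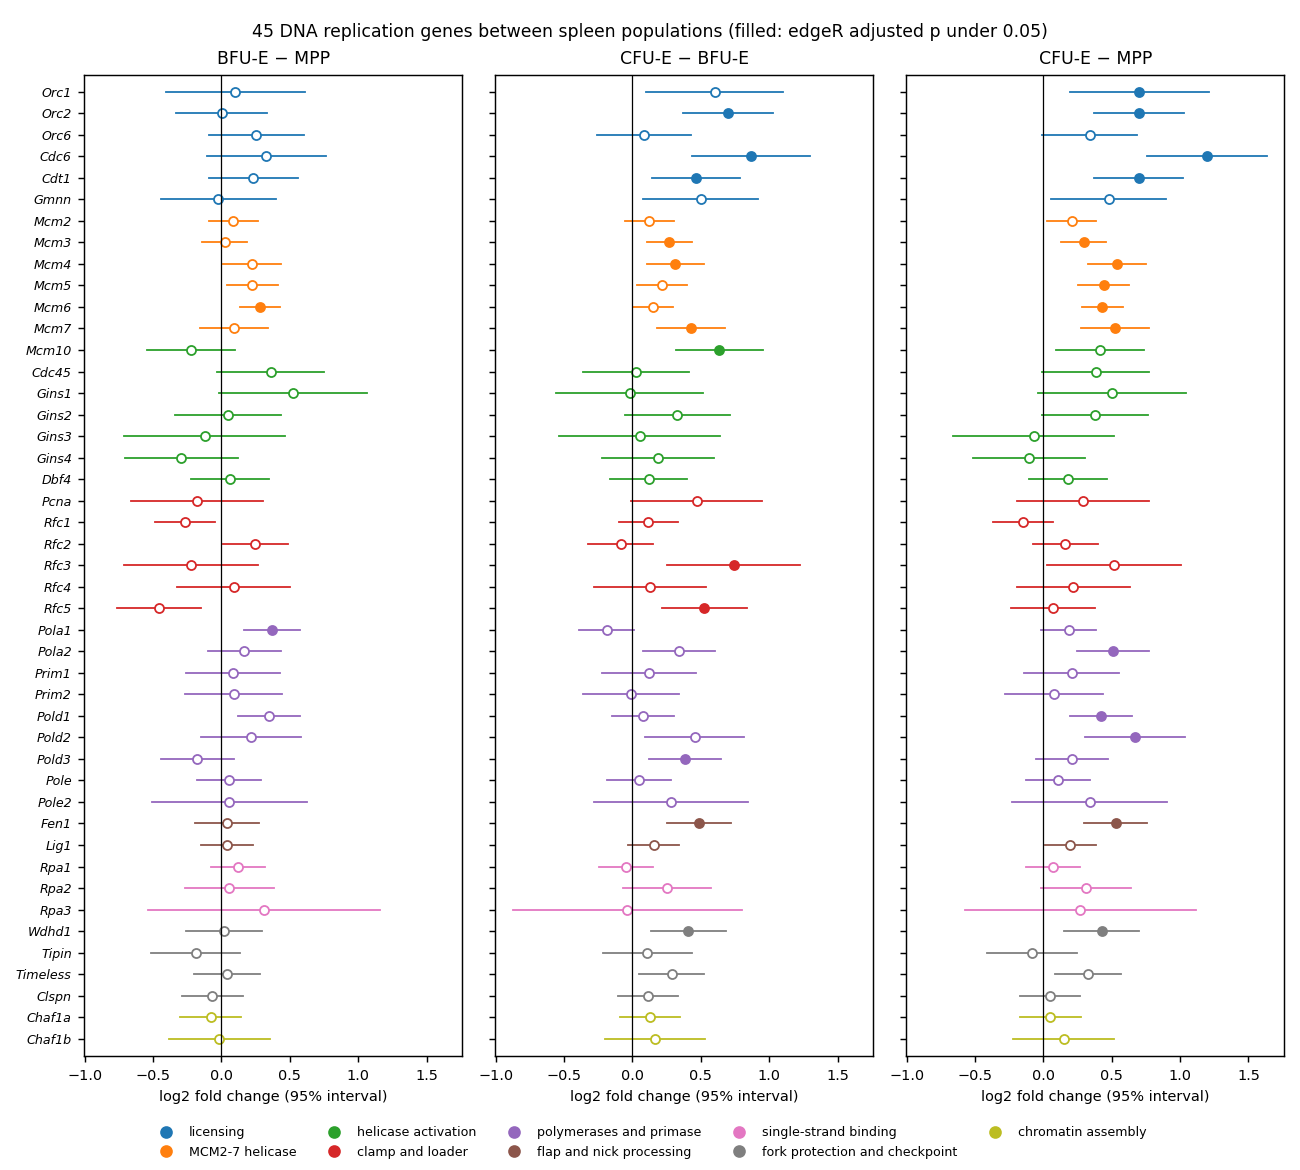
Log2 fold changes (horizontal axis) with 95% intervals for the 45 genes, coloured by role, in the comparisons of BFU-E with MPP, CFU-E with BFU-E and CFU-E with MPP. Filled points passed edgeR's test: 2, 12 and 14 genes, all to the right of 0.

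Whether a gene moved differently at both steps was tested as the difference of the log2 fold changes. Of all genes 7.77% were called in this test, 2.78% with a larger and 4.99% with a smaller change at the second step, and of the 45 members 1, Rfc5 (chr5:117379145-117389023). It had 92.3, 79.8 and 84.2 CPM in MPP, 62.2, 63.6 and 61.2 in BFU-E and 88.7, 105 and 76.1 in CFU-E. BFU-E were thus the low point of this clamp loader gene (difference 0.98, SE 0.28, edgeR adjusted p = 0.030). The call was lost when any of BFU-E 1 to 3, MPP 1 or CFU-E 2 was left out (edgeR adjusted p = 0.054 to 0.12), and 10.7% of its exonic bases overlap Wsb2 on the other strand. Pola1 had the opposite shape, with 275 ± 4.25 CPM in CFU-E below the BFU-E libraries, and did not pass (difference -0.56, edgeR adjusted p = 0.059). For the other 43 members no difference between the steps was called, so the larger number of calls at the second step is not itself a tested difference for these genes. The mean CPM rose from stage to stage for 26 members, it was highest in CFU-E for 35, and for 0 members CFU-E had the lowest mean. No such counts were made over all genes, so they are not read as a trait of the members.

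Other genes of the cell cycle were read from fixed lists in the same fit. Of 44 tested replication genes outside the 45, 5 rose (11.4%) and 2 fell from BFU-E to CFU-E, with a median of 0.16. Over all genes 9.17% were called higher and 11.9% lower, so the share that rose was near that of all genes. The largest rises were those of the ORC subunit Orc5 (1.22, edgeR adjusted p = 0.0040), the histone chaperone Nasp (0.66, edgeR adjusted p = 0.00012) and the helicase Recql4 (0.55, edgeR adjusted p = 0.035). Recql4 lost its call in 6 of 14 alternatives (edgeR adjusted p up to 0.14). The maintenance methyltransferase Dnmt1 (-0.28, edgeR adjusted p = 0.0075) and topoisomerase Top2a (-0.26, edgeR adjusted p = 0.014) fell. Of 8 genes that supply deoxynucleotides 2 rose (25%) and 0 fell. The 2 that rose were the small subunit of ribonucleotide reductase Rrm2 (0.65, edgeR adjusted p = 0.0038) and the dUTPase Dut (0.45, edgeR adjusted p = 0.021).

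Of 14 mitosis genes 0 rose and 4 fell from BFU-E to CFU-E, where 11.9% of all genes were called lower. Their median was -0.34, 13 of 14 were below 0, and the difference from the replication genes was not tested. The cyclins Ccnb1 (-1.06, edgeR adjusted p = 0.037), Ccnb2 (-0.77, edgeR adjusted p = 0.00063) and the spindle protein Nusap1 (-0.49, edgeR adjusted p = 0.0069) had the largest falls. Ccnb1 lost its call in 5 of 14 alternatives, when BFU-E 1, BFU-E 2 or any CFU-E library was left out (edgeR adjusted p up to 0.16). Of the CDK inhibitors, 1 of 4 tested genes passed, Cdkn2d, which fell (-0.88, edgeR adjusted p = 0.021). The megakaryocyte marker sum fell over the same step from at least 1773 to at most 90.2 CPM, and 7 of 7 of its genes fell. Its part in the changes of replication and mitosis genes was not tested. In sorted bulk RNA, a smaller share of cells in a phase and less RNA per cell cannot be told apart.

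**Figure D3:**
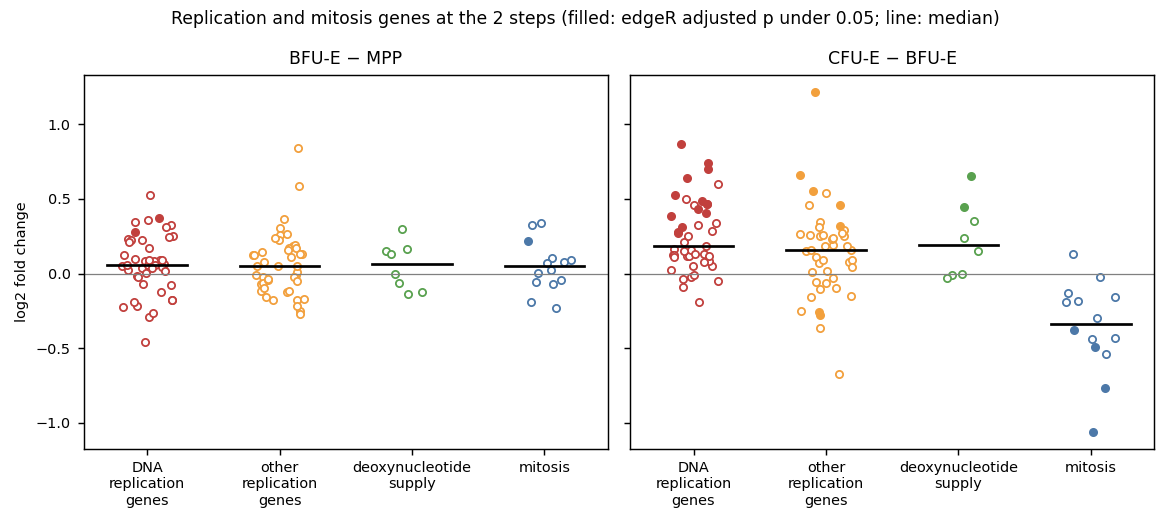
Log2 fold changes (vertical axis) of the 45 replication genes, 44 other replication genes, 8 deoxynucleotide supply genes and 14 mitosis genes from MPP to BFU-E and from BFU-E to CFU-E. Each point is a gene, filled where edgeR called it, and lines are medians; at the second step the medians are 0.19, 0.16, 0.19 and -0.34.

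The last RNA comparison asks how stress spleen BFU-E differ from BFU-E of resting marrow. Of the 45 members 0 were called, against 0.112% of all genes (0.00934% higher and 0.103% lower), and 1 had an unadjusted p under 0.05 with edgeR. DESeq2 called 1 member and 685 of all 10702 genes. The median log2 fold change of the members was 0.32 against 0.01 over all genes, and 34 of 45 were above 0. Groups did not overlap for 10 members that were higher and 1 that was lower in stress spleen, against 12.8% and 9.08% of all genes (21.9% in either direction). In counts simulated with 1 spread per gene for both groups, edgeR recovered 4% of 2-fold and 21% of 4-fold changes. The changed genes were drawn from the whole table, and the real BM libraries spread more than the spleen ones. These shares may therefore not hold for the members, and the absence of a call is no evidence of equal levels.

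Rpa1, the DNA-binding subunit of the single-strand binding protein, was the member with the smallest p. It had 111, 170.5 and 147 CPM in the BM libraries and 251, 267 and 276 in stress spleen BFU-E. All spleen libraries were above all BM libraries, but the difference did not pass (log2 fold change 0.89, SE 0.20, edgeR adjusted p = 0.23, and 0.056 to 1.00 over the other edgeR and limma fits of these counts). DESeq2 gave it an adjusted p of 0.00052. Orc6 (0.78), Pold1 (0.83), Prim2 (0.73), Tipin (0.50), Orc2 (0.56), Mcm7 (0.48), Fen1 (0.57), Chaf1b (0.39) and Rpa3 (0.76) were the other members whose spleen libraries were all higher. Lig1 (-0.27) was the one with all spleen libraries lower. The edgeR adjusted p of these 10 lay between 0.53 and 0.90.

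The BM libraries differed among themselves far more than the spleen libraries. The median coefficient of variation of the members was 42.2% in BM and 8.08% in stress spleen BFU-E, where all genes had 51.7% and 15.1%. The GINS subunit Gins2 had 0.759, 22.9 and 122.7 CPM in the BM libraries and 36.6, 36.2 and 40.6 in spleen, and 67.3% of its exonic bases overlap Gse1 on the other strand. Orc1 had 67.8, 5.63 and 47.4 CPM in BM and 24.6, 25.4 and 19.5 in spleen, and Pcna had 13.6, 85.6 and 101 against 37.7, 36.5 and 33.3. For 20 members all 3 spleen values lay within the range of the BM libraries, and 6 members differed over 5-fold between BM libraries, where 0 did between spleen libraries. These counts were not made over all genes, whose median variation in BM was larger than that of the members. They are therefore not read as a trait of the members. Of the BM libraries, BM 3 had the lowest value for 21 members and the highest for 11. BM BFU-E had myeloid marker sums of 794 to 2004 CPM against 699 to 843 in stress spleen BFU-E in the same table, and macrophage sums of 26.5 to 73.2 against 2.72 to 10.6. Erythroid sums were 160 to 272 CPM in BM against 288 to 336, stem cell sums 382 to 590 against 378 to 414, and stromal sums 67.8 to 141 against 50.7 to 83.1. Megakaryocyte sums were 2075 to 3104 CPM against 1804 to 2082, and mast cell sums 7.39 to 66.0 against 5.15 to 16.7. The part of these cell type markers in the result and in the spread was not tested.

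**Figure D4:**
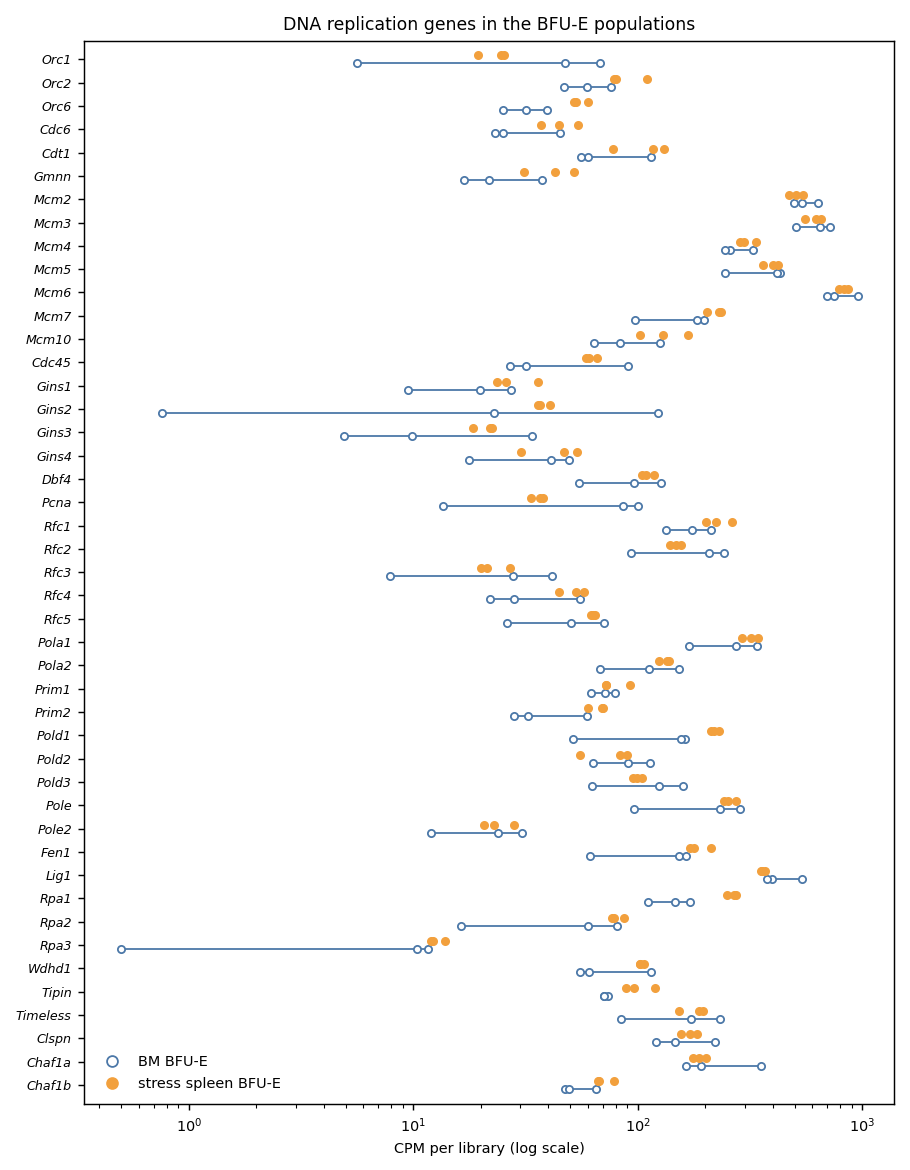
CPM of the 45 genes in each BFU-E library (horizontal axis, log scale), with open points and a line over the range for BM and filled points for stress spleen. The BM ranges are wide, from 0.759 to 122.7 CPM for Gins2, while the spleen libraries of a gene lie within 1.77-fold.

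The deposited tables do not give 1 answer for BM. In the RPKM table of the BFU-E libraries, limma on log2(RPKM + 1) called 0 members and 25 genes (0.241% of 10363), and the members had a median difference of 0.42 against 0.15 over all genes. With the BM columns of the RPKM table of 12 libraries, it called 34 members, 3 higher and 31 lower in stress spleen, with a median of -1.31 against -0.95 over all genes, 63.6% of which were called. Columns with the same BM number correlated across the 2 tables at r = 0.567 and 0.518 over genes, where spleen BFU-E columns reached 0.9998. For Rpa1 the log2 difference was 0.90 in the first table and -1.04 in the second. The BM columns of the second table were not used for levels, and why they differ was not tested.

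Open chromatin was found at the start of every member in both BFU-E populations. A peak covered the annotated start site of 45 of 45 members in the BM list (35142 intervals) and in the stress spleen list (61661 intervals), against 87.1% and 91.2% of the 10702 genes of the BFU-E table. Members with a peak that the deposited annotation assigned to them within 1000 bp of the start site were fewer, 40 in BM (95% Wilson interval 76.5% to 95.2%, counting error only) and 39 in stress spleen (73.8% to 93.7%), against 79.1% and 83.4% of genes. The start sites of Orc1, Dbf4, Prim2 and Rpa3 had no such peak in either list, that of Rpa1 had none in BM, and those of Mcm6 and Pole had none in spleen. There the covering peak carried the name of a neighbour or no name, such as Prpf38a for Orc1 (chr4:108578797-108579976 in BM) and Slc25a40 for Dbf4 (chr5:8422137-8423484), whose start sites lie close by.

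The covering peaks had a median width of 1118 bp in BM and 1009 in spleen, against 1179 and 1100 over all covered genes. Their score, the authors' own per peak with a top value of 1000, was at the top for 45 of 45 members in spleen and for 35 of 45 in BM, against 92.4% and 65.0% of all covered genes. The lowest was that of Pola2 in BM, with 515. Peak lists of different length and depth give no measure of change, so no order between tissues is read from these scores.

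Away from the start sites the members had fewer peaks per gene than the table as a whole. By gene name, 18 peaks in BM and 58 in spleen lay over 1000 bp from a start site, which is 0.400 and 1.29 per member against 1.23 and 2.45 per gene of the BFU-E table. In BM 13 of 45 members had such a peak (28.9% against 50.2% of genes) and in spleen 30 (66.7% against 67.2%). Of the 18 BM peaks 16 overlapped a peak of the spleen list by at least 1 bp, and of the 58 spleen peaks 17 overlapped one of BM. Rfc3 had 6 in spleen and 3 in BM, and Rpa1 had 5 and 2.

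**Figure D5:**
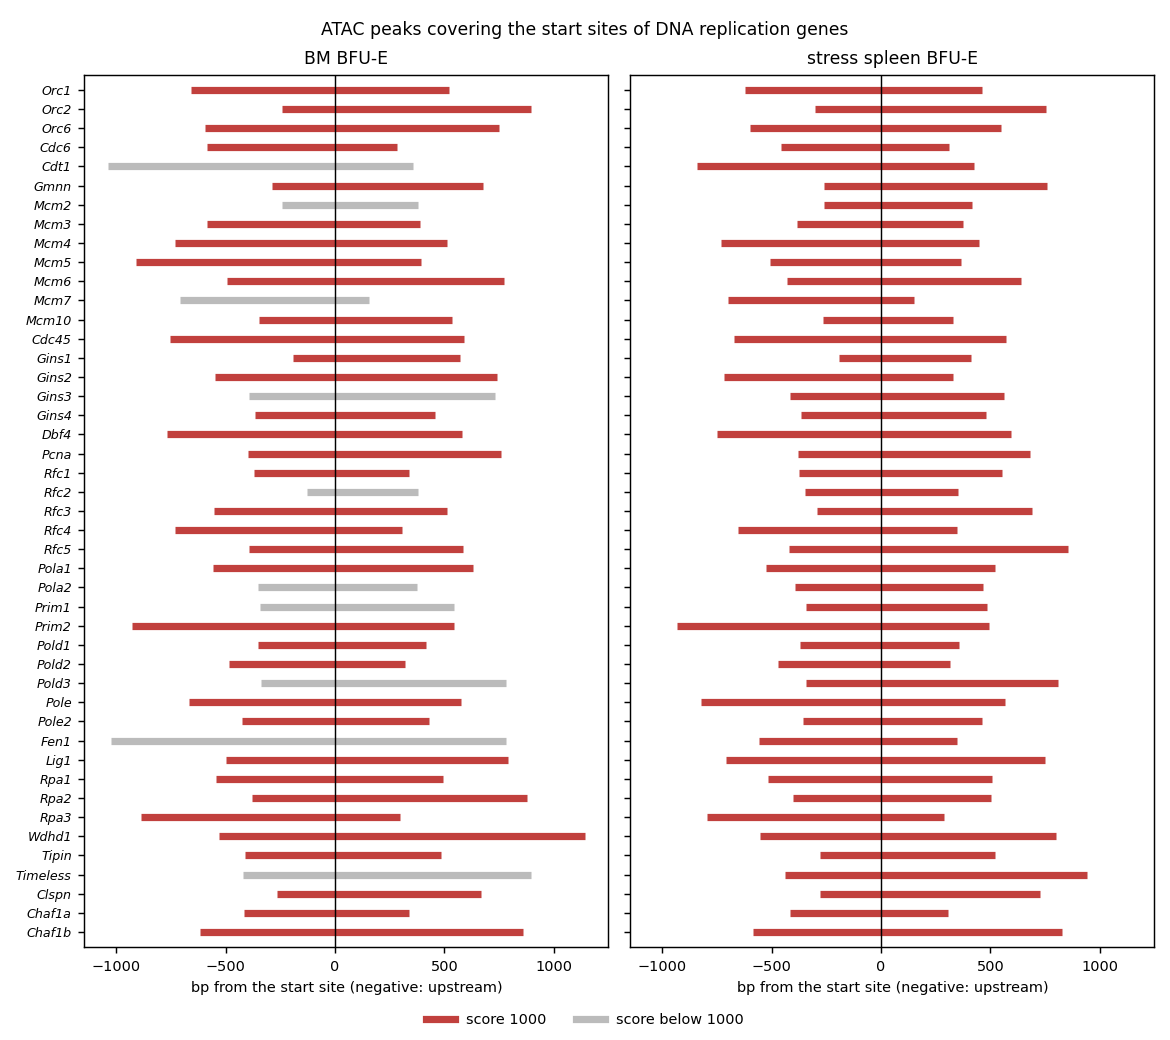
Extent of the ATAC peak that covers the start site of each of the 45 genes, in bp from the start site (horizontal axis, upstream negative), in BM and stress spleen BFU-E. Bars are red at the top score of 1000 and grey below it; 10 bars are grey in BM and 0 in spleen.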

How the data were processed

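RNA was measured in 12 libraries of 4 sorted populations and open chromatin in 6 libraries of 2. The tools named in the submitters' processing notes are HOMER 4.8, Bowtie2 2.3.4.2, DESeq2 and STAR 2.6.0b-1, on mm10 (GRCm38), with no role given for each. Per the file headers, HOMER counted reads over exons with 1 transcript per gene, on a strand that is not stated. The deposited tables hold raw counts per gene, unnormalised, for 9 spleen libraries and, kept by the authors on a mean of 50 counts, for 6 BFU-E libraries. A pair of further deposited tables holds RPKM, scaled by the authors to length and library size, and 1 BM column of the BFU-E table has an incomplete name and was used for its group alone. For ATAC, a single merged list was deposited for each population, and every peak has a score. The peak caller is not given in the sources used here, and depth per ATAC library is unknown.

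Counts were fitted with edgeR 4.0.16 (R 4.3.3, TMM, quasi-likelihood F test, Benjamini-Hochberg adjustment over all genes, threshold 0.05): BM against spleen BFU-E in one fit, and the 3 spleen populations together on genes with a mean of at least 50 counts. CPM uses TMM factors, and errors are SD over 3 libraries unless named SE. The fits were tested on simulated counts. Alternatives were DESeq2 1.42.0, other filters and scalings, a replicate block, quality weights and log2 RPKM with a pseudocount of 1 in limma 3.58.1. Of repeated peak entries with the same coordinates only the first was kept, with its score. An ATAC peak within 1000 bp of a start site counted as a promoter peak. Exon overlaps used GENCODE M21.

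The members and all gene lists were chosen with earlier results of these data known. Full statistics are given for up to 2 called members per role, direction and comparison and for the most abundant member of a role; lists of other genes give up to 3 per direction.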

Additional observations from a re-analysis of the deposited data

How the results depend on the processing

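No called gene that the text names changed direction under the alternatives of the count fits, but members above 0 from MPP to BFU-E went from 32 to 24 without MPP 1. Role groups were not refitted. With other settings than the main one, the number of members called from MPP to BFU-E was 0 when only these populations were fitted, and 0 to 1 with a library left out. From BFU-E to CFU-E leaving out a library gave 5 to 13, and from MPP to CFU-E 10 to 16. For the difference of the steps, DESeq2 called 3 members and a mean of at least 200 counts 2. In each of these settings 1 of the called members had a smaller change at the second step. No filter gave 2 and leaving out a library 0 to 1. For stress spleen against BM BFU-E DESeq2 called 1, and limma on log2 RPKM with the BM columns of the 12-library table, chosen after seeing the data, called 34, with the median turned to -1.31. The cause was not tested. To check the replicate numbers, the mean of its population was taken from the log2 CPM of each gene in each library. Between spleen libraries of different populations, these deviations correlated at 0.0151 to 0.116 for the same number and at -0.0897 to 0.0296 otherwise. They do not measure how alike the expression of the libraries is. The same-numbered spleen pairs were thus all above 0. The highest was 0.116, for BFU-E 1 with CFU-E 1, and the next was 0.0919, for MPP 1 with CFU-E 1. The main fits did not use the numbers to pair, and a shared origin was not settled. With the numbers as a replicate block, Cdt1 lost its call from BFU-E to CFU-E. The replicate block gave 2, 11 and 16 members for the spleen comparisons in the order above, 2 for the difference of the steps and 0 for stress against BM. Members with a promoter peak by name were 19 in BM and 22 in spleen within 100 bp, 30 and 39 at the top score, and 45 and 45 with a start site covered by a peak of any name, an alternative chosen after seeing the data. BM libraries limit the stress comparison, and for ATAC there is no replicate measure and no depth.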
